A study of Mus musculus with 3 samples.

Results

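The genes described are p53 and a set of its growth arrest targets in C2C12, a line of mouse myoblasts able to fuse into muscle fibres in culture. They were chosen by gene symbol as Trp53, Mdm2, Ccng1, Gadd45a, Trp53inp1, Phlda3, Sesn1, Zmat3, Ei24 and Perp, and every probe set annotated to these symbols was read. Of the 10 genes, 9 had an annotated probe set, 15 probe sets in all, out of 12393 named genes and 22690 probe sets on the array. No probe set was annotated to Trp53 in the table used here, so the p53 transcript was not analysed here and the data concern its regulator and targets. The 3 groups were untreated cells, cells transfected with EGFP (enhanced green fluorescent protein, the control for transfection) and cells transfected with DGKzeta (diacylglycerol kinase zeta, which converts diacylglycerol to phosphatidic acid). All carry the time label 12 h, and wells had been plated 18 h before transfection by the FuGene reagent. The series asks how this kinase halts the cell cycle.

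Each group was 1 sample on 1 array, so no difference below has a replicate check and none has a p-value. Neither the share of cells that took up a construct nor the promoter that drove it is given in the sources used here. In such bulk samples, fewer cells of a type and less RNA per cell cannot be told apart. Signals are linear intensities, 1 for each probe set. A signal under 107, the median of all values pooled, was taken as not measured, and a ratio with 1 array under this floor is a bound. Different probe sets bind with different strength, so signals are compared between arrays within a probe set, never between genes. As a yardstick of error, the SD of a single probe set's log2 ratio was 0.40 for DGKzeta against EGFP, 0.50 for DGKzeta against untreated and 0.27 for EGFP against untreated. It came from 2245 genes with a pair of probe sets measured on all 3 arrays and holds no spread between cultures.

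The labels were checked first. Both Dgkz probe sets were highest on the DGKzeta array, by 12.8-fold and 18.0-fold over EGFP. Of 8 myoblast markers 7 were above the floor on every array, while Myod1, a defining myogenic factor, was under it (35.1 untreated, 26.5 EGFP, 23.7 DGKzeta). Of 8 markers of differentiated muscle 1, Acta1, reached the floor on some arrays, and of 3 adipocyte markers 1, Pparg, on all. Leukocyte, epithelial and endothelial markers were under the floor on all 3 arrays. The 3' to 5' signal ratio of the Actb control probe sets, a sign of RNA or label length, was 2.55 on the DGKzeta array against 1.43 and 1.27 on the EGFP and untreated arrays, and that of Gapdh was 0.931, 0.902 and 0.841. The part of this difference in the results below was not tested.

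p53 is a transcription factor that is held at a low level by the ubiquitin ligase Mdm2 and accumulates when DNA damage or other stress interrupts that control. It binds response elements made of a pair of like units, each called a half-site, and switches on genes that stop the cell cycle, repair DNA, restrain growth signalling or start cell death. Mdm2 is itself a p53 target, which closes a negative feedback loop. In myoblasts p53 activity is known to touch both the cell cycle and the entry into differentiation.

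The windows around transcription start sites were searched for the p53 half-site (purines, a C and a G around A or T bases, then pyrimidines, the same read on either strand). RefSeq windows on GRCm38.p6, running from 250 bases before a start to 50 after it, were at hand for 7 of the 10 genes (8 windows): Trp53, Mdm2, Ccng1, Gadd45a, Phlda3, Sesn1 and Ei24. Since the genes were picked as p53 and its targets, their share of matches is no independent result about them. A half-site match was present for 6 of the 7 genes, all but Phlda3, against 9.55% of 27025 genes with a window, and in 6 of the 8 windows against 8.36% of all 32851 windows. None of these windows held a full site, a pair of half-sites up to 13 bases apart, which 0.0731% of all windows did. One such window belongs to Cdkn1a, the gene of the p53-induced CDK inhibitor p21. It is shown for comparison, with its pair of exact matches 12 bases apart. The pattern allowed no mismatch. The bases right after the second Cdkn1a match depart from the pattern at a single base, so they were not marked. Sites outside these windows, such as those further upstream or within a gene, were not searched for, nor were inexact ones. The lack of a full site thus holds only for exact matches in these windows. A match is a description of the letters and not evidence of binding.

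The upstream sequences are shown as a description. Among genes with a match, Mdm2, Ccng1 and Gadd45a had higher signals with DGKzeta than on both other arrays, Ei24 did not, and Sesn1 depended on the probe set. Whether a match bears on these signals was not tested. Each sequence is written 5' to 3' on the strand of the gene, with half-site matches in capitals. The first 4 are the 250 bases before the start; the others are shorter stretches around the match.
Mdm2, chr10:117710759-117711008, minus strand: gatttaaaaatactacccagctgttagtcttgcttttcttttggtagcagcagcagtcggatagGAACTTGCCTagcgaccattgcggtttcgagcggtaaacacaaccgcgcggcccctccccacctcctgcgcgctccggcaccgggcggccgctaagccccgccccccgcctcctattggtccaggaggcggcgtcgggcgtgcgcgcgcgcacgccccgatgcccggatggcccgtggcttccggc
Ccng1, chr11:40755287-40755536, minus strand: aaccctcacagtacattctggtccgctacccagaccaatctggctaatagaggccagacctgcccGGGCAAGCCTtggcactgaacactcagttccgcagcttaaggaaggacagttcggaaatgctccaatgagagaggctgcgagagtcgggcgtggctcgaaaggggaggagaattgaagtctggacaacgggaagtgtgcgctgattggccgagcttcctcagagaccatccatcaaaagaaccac
Gadd45a, chr6:67037408-67037657, minus strand: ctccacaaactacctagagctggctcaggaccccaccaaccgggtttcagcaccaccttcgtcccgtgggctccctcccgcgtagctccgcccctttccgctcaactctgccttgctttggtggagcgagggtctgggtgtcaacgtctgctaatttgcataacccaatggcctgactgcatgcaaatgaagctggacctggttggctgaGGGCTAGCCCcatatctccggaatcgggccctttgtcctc
Cdkn1a, chr17:29090729-29090978, plus strand: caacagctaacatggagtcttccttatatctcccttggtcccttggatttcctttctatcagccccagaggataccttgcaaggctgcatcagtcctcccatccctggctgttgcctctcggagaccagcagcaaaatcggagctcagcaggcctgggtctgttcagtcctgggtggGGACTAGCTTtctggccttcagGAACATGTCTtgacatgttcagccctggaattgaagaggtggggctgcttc
Sesn1, chr10:41887241-41887300, plus strand: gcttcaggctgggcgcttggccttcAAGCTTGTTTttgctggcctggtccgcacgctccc
Ei24, chr9:36797335-36797369, minus strand: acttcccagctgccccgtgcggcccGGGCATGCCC

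The matches began 186 bases before the start in Mdm2, 185 in Ccng1, 173 in the second Sesn1 window, 75 in Trp53, 40 in Gadd45a and 10 in Ei24.

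**Figure D1:**
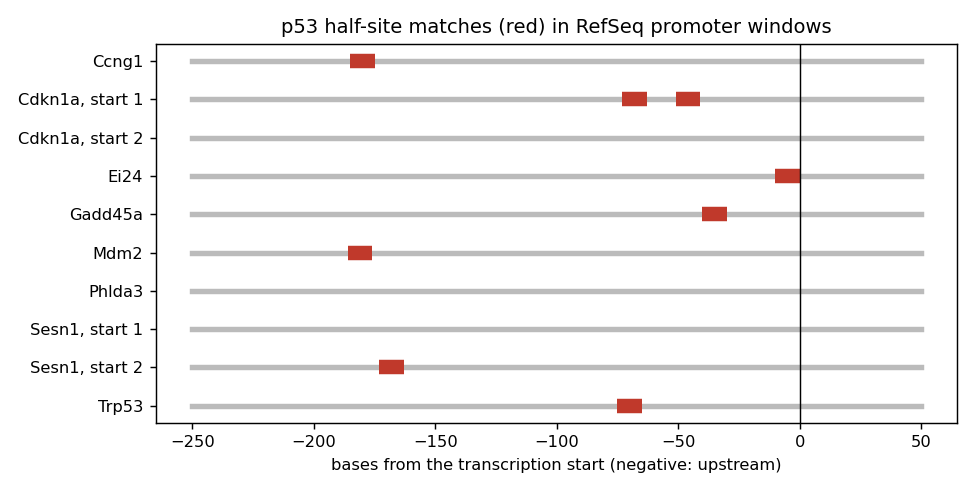
Positions of p53 half-site matches (red) in the RefSeq windows of the genes and of Cdkn1a, in bases from the transcription start, each grey line being 1 window. Matches lie between 186 bases upstream (Mdm2) and the last bases before the start (Ei24), the Cdkn1a window has a pair, and Phlda3, the first Sesn1 window and the other Cdkn1a window have none.

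Mdm2, the ubiquitin ligase that marks p53 for degradation, was higher with DGKzeta than on both other arrays. Its brighter probe set (1423605_a_at) read 980 (untreated), 1036 (EGFP) and 1683 (DGKzeta). The untreated and EGFP signals were close and the DGKzeta signal stood above them, 1.63-fold over EGFP and 1.72-fold over untreated, or log2 ratios of 0.70 and 0.78. The other probe set (1427718_a_at) gave 794, 861 and 928, in the same order but only 0.11 on the log2 scale above EGFP and 0.23 above untreated. The size of the Mdm2 difference thus rested on the probe set, and that of the dimmer one was below the SD of a single probe set.

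Ccng1 encodes cyclin G1, an atypical cyclin that brings a phosphatase to Mdm2 and is among the most regular targets of p53. Its brightest probe set (1420827_a_at) read 3436 (untreated), 4091 (EGFP) and 6193 (DGKzeta), 1.51 times the EGFP and 1.80 times the untreated signal. The second (1450017_at) read 1270 (untreated), 1290 (EGFP) and 1898 (DGKzeta), 1.47-fold above EGFP. The third (1450016_at) came to 1239, 1363 and 1486, which is 0.13 on the log2 scale relative to EGFP and 0.26 relative to untreated. All 3 probe sets were ordered untreated, EGFP, DGKzeta from low to high, and 2 of the 3 exceeded EGFP by more than the SD of a single probe set.

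Gadd45a, a stress-induced protein that binds PCNA and CDK1 and acts at the G2 checkpoint, rested on 1 probe set (1449519_at). It read 158 (untreated), 240.5 (EGFP) and 355 (DGKzeta). The signals formed a ladder in which EGFP lay 1.52-fold above untreated and DGKzeta 1.47-fold above EGFP, so that DGKzeta was 2.24-fold above untreated. The step from untreated to EGFP was about as large as that from EGFP to DGKzeta: the log2 ratios were 0.61 for EGFP against untreated and 0.56 for DGKzeta against EGFP.

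Trp53inp1, a p53-induced nuclear protein that assists the phosphorylation of p53 and takes part in autophagy, had the same order and the largest ratio of these genes. Its brighter probe set (1416926_at) read 63.5 (untreated, under the floor), 177 (EGFP) and 364 (DGKzeta). DGKzeta was 2.05-fold above EGFP, a log2 ratio reached by 16 of the 6542 genes measured on both arrays. Against untreated cells it was at least 3.40-fold higher, and EGFP was at least 1.66-fold higher. The other probe set (1416927_at) lay at 3.62, 18.2 and 3.44, under the floor on all 3 arrays, and gives no second reading.

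Sesn1 encodes sestrin 1, an inhibitor of the growth kinase complex mTORC1, and its probe sets pointed in different directions. The brightest (1433711_s_at) read 309 (untreated), 273 (EGFP) and 262 (DGKzeta), which is -0.06 on the log2 scale relative to EGFP and -0.24 relative to untreated. The second (1454699_at) read 115 (untreated), 171 (EGFP) and 238 (DGKzeta), 2.06-fold above untreated. The third (1438931_s_at) read 112, 155 and 263, 1.70-fold above EGFP and 2.35-fold above untreated. Both dimmer probe sets were higher at each step from untreated to EGFP to DGKzeta and started just above the floor of 107, while the brightest was nearly level. With _x_at and _s_at sets left out, the gene is read by its second probe set, at 0.47 against EGFP.

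**Figure D2:**
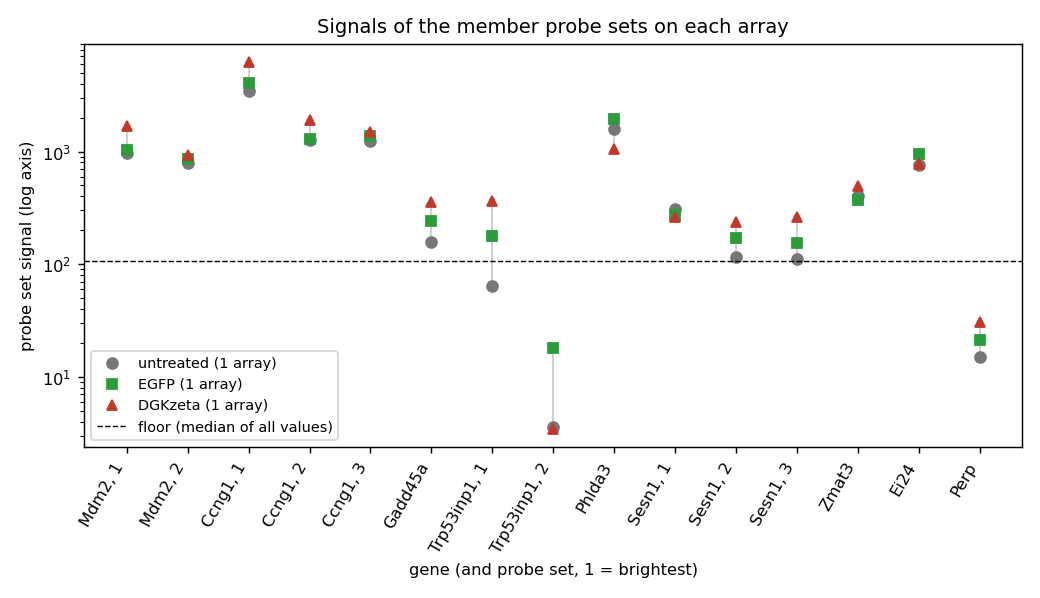
Signals of the 15 probe sets on a log axis, 1 point for each array (grey circle untreated, green square EGFP, red triangle DGKzeta), with the floor of 107 dashed and numbers marking the probe sets of a gene by brightness. Mdm2, Ccng1, Gadd45a and the brighter Trp53inp1 probe set have their highest point on the DGKzeta array, and Phlda3 has its lowest there.

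Phlda3 went the other way from these genes. It encodes a protein with little more than a PH domain, which competes with the kinase Akt for membrane lipids and so restrains survival signalling. Its probe set (1449002_at) read 1579 (untreated), 1958 (EGFP) and 1054 (DGKzeta). The DGKzeta array was the lowest of the 3, 1.86-fold below EGFP and at -0.58 on the log2 scale relative to untreated, while EGFP lay 1.24-fold above untreated. Against EGFP 260 of the 6542 genes measured on both arrays, Phlda3 among them, had a ratio this low or lower.

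The remaining targets differed little. Zmat3, a zinc finger protein that binds RNA, read 404 (untreated), 371 (EGFP) and 495 (DGKzeta) (1449353_at), a log2 ratio of 0.42 against EGFP, just above the SD of 0.40, and of 0.29 against untreated, below its SD. Ei24, a protein of the endoplasmic reticulum with a part in autophagy, had 759, 947 and 776 (1416555_at), which is -0.29 on the log2 scale relative to EGFP and 0.03 relative to untreated. Its highest signal was on the EGFP array. Perp, a tetraspan membrane protein of desmosomes and a death effector of p53, had 15.1, 21.4 and 30.6 (1416271_at), under the floor on all 3 arrays, so no ratio is given.

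Counted over genes by their brightest probe set, 8 of the 10 were measured on at least 1 array. Against EGFP, 1 of these 8 (Trp53inp1) was at least 2-fold higher with DGKzeta, where 0.347% of all 6926 genes tested were, and 0 were at least 2-fold lower, where 2.84% were. At 1.5-fold, 3 of the 8 were higher (Mdm2, Ccng1 and Trp53inp1; 3.51% of all genes) and 1 was lower (Phlda3; 11.6% of all genes). Their median log2 ratio was 0.49, with 5 above 0, against a median of -0.02 over all genes tested, of which 47.4% were above 0. Of the 13 probe sets tested, 10 were above 0, but genes with several probe sets count more than 1 time. No share over all probe sets was taken.

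Against untreated cells, 2 of the 8 (Gadd45a and Trp53inp1) were at least 2-fold higher, where 1.34% of 6866 genes were, and 0 were at least 2-fold lower, where 2.80% were. At 1.5-fold 4 were higher (Mdm2, Ccng1, Gadd45a and Trp53inp1; 7.09% of all genes) and 0 lower, where 9.93% of all genes were; Phlda3 lay just inside this limit. The median was 0.54 with Trp53inp1 at its bound, against -0.02 over all genes. Trp53inp1 entered this comparison through the DGKzeta array alone and could only be higher there. Both comparisons use the same DGKzeta array, so they are not independent readings of it. The same genes had been part of earlier results of these data when they were chosen, and no test across the set is given.

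EGFP against untreated cells shows what transfection without the kinase went with. None of the 8 genes was at least 2-fold higher or lower, where 0.361% of 6932 genes were higher and 0.303% lower. At 1.5-fold 2 were higher, Gadd45a and Trp53inp1 (4.13% of all genes), and 0 lower, where 1.51% were. Trp53inp1 was under the floor in untreated cells, so here too it could only be higher. The median log2 ratio was 0.28 against 0.02 over all genes. In Mdm2 the ratio was 0.08 by the brighter and 0.12 by the dimmer probe set, both below the SD of 0.27, whereas Gadd45a stood at 0.61. Among the genes with their highest signal on the DGKzeta array, Mdm2 thus differed little between untreated and EGFP. Its brighter probe set was higher with DGKzeta, at 0.70 against EGFP. The dimmer one stood at only 0.11 there, about the size of its step from untreated to EGFP. Gadd45a and Trp53inp1 were higher in EGFP and higher again with DGKzeta. For Ccng1 the ratio of EGFP against untreated was 0.25, 0.02 and 0.14 by its 3 probe sets, all below the SD as in Mdm2. That of Zmat3, at -0.12, was below the SD too. Zmat3, Phlda3, Ei24 and the brightest Sesn1 probe set had other orders. Whether these patterns differ cannot be tested with 1 array each.

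**Figure D3:**
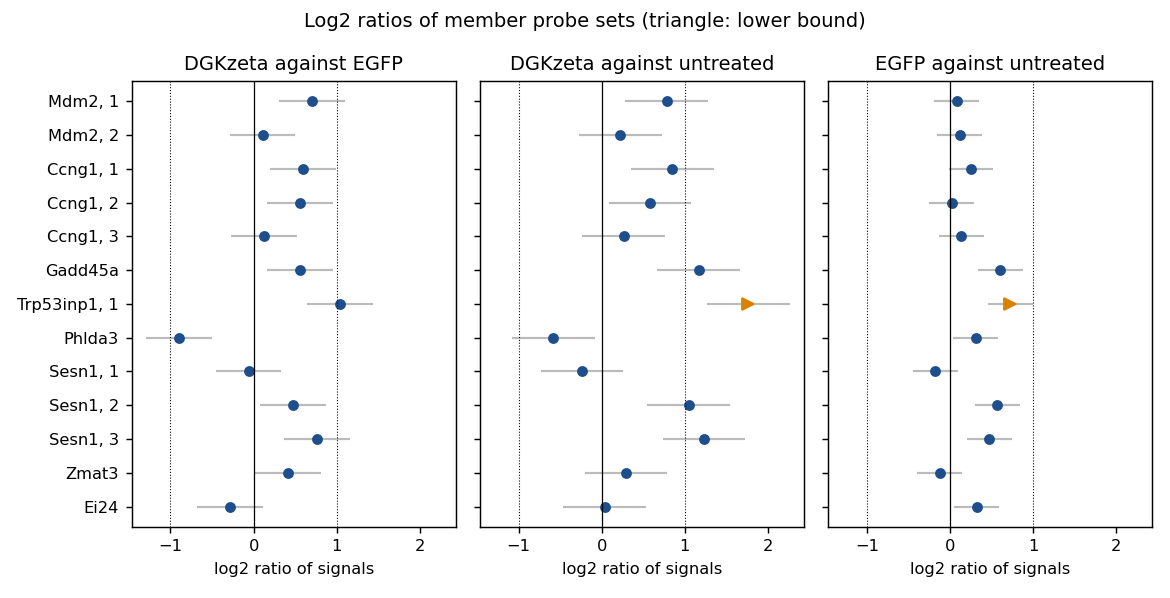
Log2 ratios of the 13 probe sets above the floor on at least 1 array, in the 3 comparisons, with grey bars of 1 SD of a single probe set's ratio (0.40, 0.50 and 0.27) and dotted lines at 2-fold; orange triangles are lower bounds. The brightest Mdm2 and Ccng1 probe sets lie right of 0 by more than their bar in both comparisons of DGKzeta and Phlda3 lies left of 0, while the Sesn1 probe sets split.

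Taken in order of arrays, 4 of the 8 genes by their brightest probe set (Mdm2, Ccng1, Gadd45a and Trp53inp1) stepped up from untreated to EGFP to DGKzeta, where 21.0% of 6988 genes did. The order was taken from signals without the floor, for these genes and for all genes. Trp53inp1 was under the floor in untreated cells, so only its step from EGFP to DGKzeta was open to either direction. This order takes no account of the size of a step: the Mdm2 step from untreated to EGFP was below the SD and turned to -0.02 under median scaling (each array's named probe sets set to 1 median). By probe set the count was 9 of 13, in which Ccng1, Mdm2 and Sesn1 count more than 1 time each. No share over all probe sets was taken, and the 21.0% is a share of genes. The DGKzeta array held the highest signal for 5 of the 8 genes, Zmat3 being the fifth, where it did so for 37.5% of all genes, and the lowest for 2, Phlda3 and Sesn1, where it did so for 42.2%. Sesn1 was lowest on that array by its brightest probe set alone, at -0.06 on the log2 scale against EGFP. Its other probe sets were highest on that array. Over the log2 ratios against untreated, Mdm2 and Ccng1 were the closest pair of these genes measured on all 3 arrays, at a distance of 0.19, and Gadd45a and Phlda3 the farthest apart, at 1.77. The genes whose pattern was nearest to that of Phlda3, among 6433 genes over these 3 arrays, were Pfkl, Ptms, St3gal2, Clptm1 and Reep3, at distances of 0.025 to 0.038. They also had their highest signal on the EGFP array and their lowest on the DGKzeta array, for example 700.1, 881 and 462 for Pfkl, a subunit of phosphofructokinase.

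How the arrays are scaled moves these values. Under median scaling the median ratio of all genes against EGFP moved by 0.36 on the log2 scale and the single ratios with it, because the DGKzeta array had the lowest median signal (92.5 against 119 and 111). Under that scaling the ratios against EGFP were 1.06 for Mdm2, 0.96 for Ccng1, 0.92 for Gadd45a and 1.40 for Trp53inp1. Phlda3 was at -0.53, still below 0. Sesn1 and Ei24 passed to the other side of 0, at 0.30 and 0.08. With quantile normalization Mdm2, Ccng1, Gadd45a and Trp53inp1 were at 0.68, 0.53, 0.76 and 1.26, Phlda3 at -0.91 and Sesn1 at 0.15. Mdm2, Ccng1, Gadd45a, Trp53inp1 and Zmat3 were above 0 and Phlda3 below 0 against EGFP in all 4 scalings, under which the median of all genes lay between -0.02 and 0.33. Setting medians equal, over all named or only over measured probe sets, raised each of these ratios by the same amount. It could thus not take a gene from above 0 to below, and for the genes above 0 only quantile normalization could have done so.

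**Figure D4:**
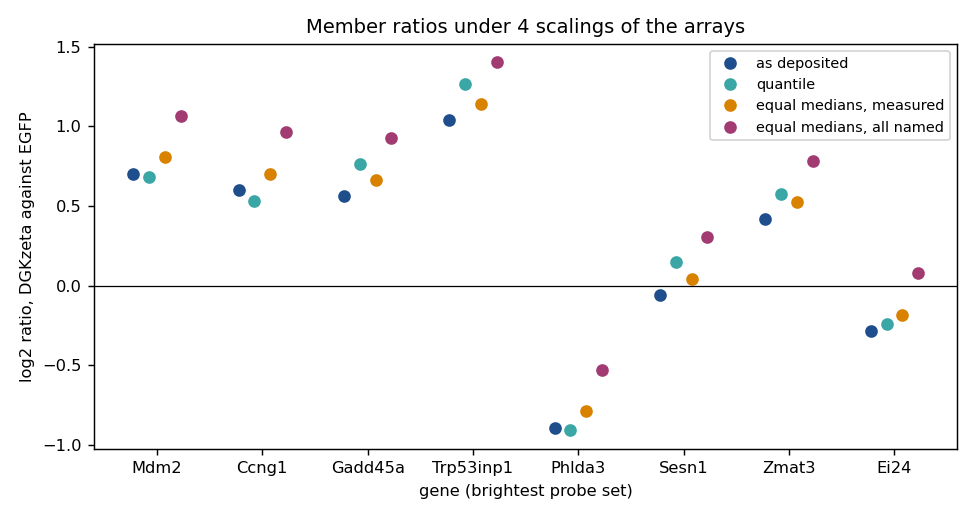
Log2 ratio of DGKzeta against EGFP for the 8 genes measured, by the brightest probe set, under the deposited scaling and 3 others (colours). Trp53inp1, Mdm2, Ccng1, Gadd45a and Zmat3 lie above 0 and Phlda3 below 0, while Sesn1 and Ei24 cross 0 with the scaling. Setting medians equal only raises these ratios, so it could not take a gene from above 0 to below.

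Other genes of the p53 pathway were spread about evenly on either side of 0. Of 108 further genes in 6 lists, 89 had a named probe set and 70 were measured on at least 1 of the DGKzeta and EGFP arrays. Against EGFP 35 were above 0 and 35 below, with a median of -0.01. Of these 70, 0 were at least 2-fold higher, where 0.347% of all genes were, and 2 were lower, where 2.84% were. Against untreated cells 1 of 68 was at least 2-fold higher, where 1.34% of all genes were, and 4 were lower, where 2.80% were. The median there was -0.05. Median scaling put these medians at 0.30 and 0.21, where all genes stood at 0.33 and 0.24, and under it any ratio against EGFP that is less than 0.36 below 0 passes above it. The other members of the p53 family, Trp63 and Trp73, were under the floor on all 3 arrays.

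Among 14 measured targets in arrest and checkpoint control, 5 were above 0 and 9 below against EGFP, with a median of -0.13 (0.07 by quantile normalization, 0.24 by median scaling). Cdkn1a read 935 (untreated), 1146 (EGFP) and 1225 (DGKzeta) by its brighter probe set, which is 0.10 on the log2 scale relative to EGFP and 0.39 relative to untreated, both below the SD. Its dimmer one had 189, 144 and 94.5, in the opposite order and under the floor with DGKzeta. Gtse1, a microtubule-binding protein of G2 that restrains p53, was the 1 gene of the list at least 2-fold lower: 594, 626 and 291, or 2.15-fold below EGFP. Pml, the scaffold of nuclear bodies that gather p53 and its modifiers, was at -0.67 and the polo-like kinase Plk3 at -0.53. Gadd45g, a paralog of Gadd45a, had 1201, 888 and 680, which is -0.38 on the log2 scale relative to EGFP and -0.82 relative to untreated. Ckap2 went the other way, at 0.29 relative to EGFP, below the SD. Gadd45b, named after its values were seen, stood at -0.18 against EGFP for the brightest probe set but at -1.07 for the next.

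The DNA repair list had 8 measured genes, 6 above 0 and 2 below against EGFP, with a median of 0.09 (0.32 by quantile normalization, 0.45 by median scaling). Rrm2b, the p53-induced subunit of ribonucleotide reductase, had 291, 298 and 398, a log2 ratio of 0.42, and Xrcc5, a subunit of the Ku end-binding complex, was at 0.38. Polk, a translesion polymerase, was at -0.49 by its brighter probe set, but its other read 137, 94.1 and 145, under the floor with EGFP. Xpc, which recognises damaged DNA, was at 0.28, below the SD. Against untreated cells the same list had 2 genes above 0 and 7 below, with a median of -0.11 (0.07 by quantile normalization, 0.15 by median scaling).

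Of 8 measured cell death targets 3 were above 0 and 5 below against EGFP, with a median of -0.21, or 0.15 by median scaling. Dram1, a lysosomal protein of autophagy, was at -0.52, Apaf1, the core of the apoptosome, at 0.45, the lysosomal protease Ctsd at -0.29 and Siva1 at -0.13. Tnfrsf23, a decoy death receptor with 160, 211 and 91.9, was at least 1.97-fold lower than in EGFP cells, under the floor with DGKzeta. In the list of metabolic and other targets, 8 of 15 were above 0, with a median of 0.04 (-0.07 by quantile normalization, 0.41 by median scaling). Trp53i13 was at -0.74 against EGFP, Ppm1d, a phosphatase that switches off p53 signalling, at -0.62, the tetraspanin Cd82 at -0.52 and Thbs1, an inhibitor of angiogenesis, at -0.50. The second Thbs1 probe set gave -0.74.

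Among the listed genes that act on p53, Hipk2 had the largest difference against EGFP. Hipk2, a kinase that phosphorylates p53 and works with Trp53inp1, read 397 (untreated), 481 (EGFP) and 141 (DGKzeta), 3.41-fold below EGFP. Its second probe set had 297, 330.4 and 106, the last under the floor, and was at least 3.08-fold lower than EGFP. The third gave -0.58 and the fourth was at least 2.16-fold lower, so all 4 probe sets that reached the floor in EGFP cells were lower with DGKzeta. Atm, the kinase that signals DNA double-strand breaks to p53, had 540, 484 and 260, which is -0.90 on the log2 scale relative to EGFP and -1.05 relative to untreated.

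Trp53bp1, a repair protein named for its binding to p53, had 520, 668 and 1210 by its brighter probe set, 1.81-fold above EGFP and 2.33-fold above untreated. Its other probe set read 509.6, 518 and 471, at -0.14 relative to EGFP, so the difference was present in 1 of 2 probe sets. Kmt5a, a methyltransferase of histone H4 and of p53, had 1740, 1330 and 868, 2.01-fold below untreated, and 0.15 on the log2 scale against untreated by the other probe set. Mdm4, the partner of Mdm2 in holding p53 back, was at -0.56 against EGFP, and its dimmer probe set had its highest signal on the DGKzeta array (77.6, 99.8 and 122). Topors, a ubiquitin and SUMO ligase for p53, stood at 0.52 for the brightest probe set but at -0.42 for the next. Trim28, a corepressor that works with Mdm2, was at -0.49, and Prkdc, the DNA-dependent protein kinase, at -0.46. The 25 measured regulators had a median of 0.01 against EGFP (0.06 by quantile normalization, 0.38 by median scaling), with 13 above 0 and 12 below.

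**Figure D5:**
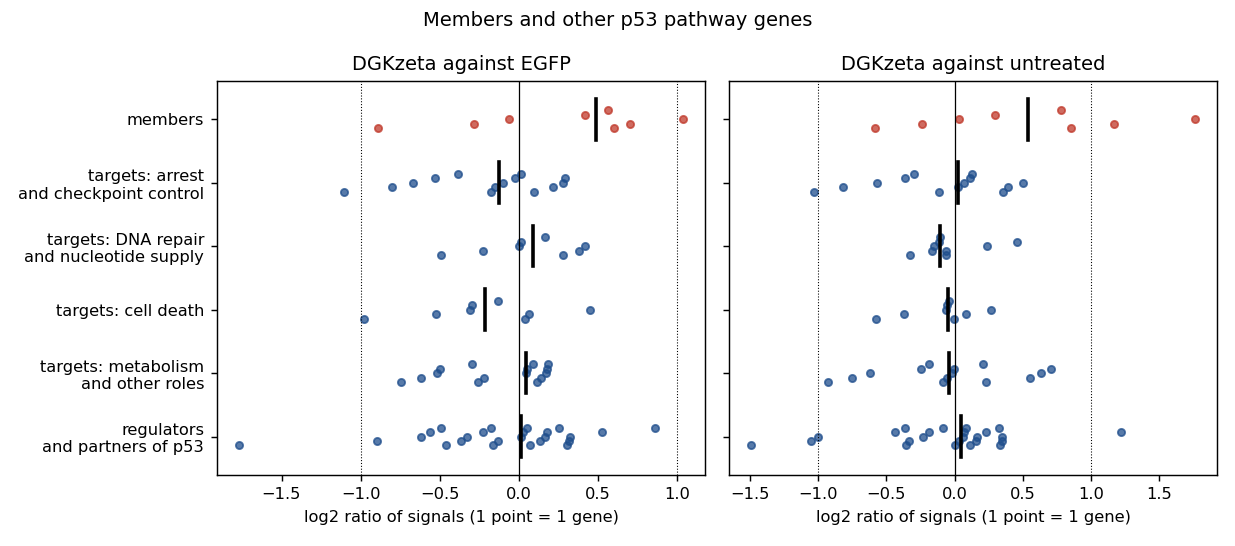
Log2 ratios against EGFP (left) and untreated cells (right) by the brightest probe set, 1 point for each gene, for the 8 genes described (red) and 5 lists of other p53 pathway genes (blue), with black bars at the medians and dotted lines at 2-fold. The red median lies at 0.49 and 0.54, and the medians of the other lists lie between -0.21 and 0.09.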

How the data were processed

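Biotin-labelled RNA (one-cycle labelling, per the labels' protocols) of 1 untreated, 1 EGFP and 1 DGKzeta sample was read on 1 array per sample. The authors deposited a linear intensity for each probe set, made with MAS5 according to the submitters' processing notes. From the values, the mean between the 2nd and 98th percentile is equal on all 3 arrays. The probes of such arrays lie mostly near the 3' end of a transcript, so shorter labelled product can lower a signal. The MAS5 version and settings are not given in the sources at hand.

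Symbols came from the platform annotation (20380 probe sets with 1 symbol), checked by gene ID against RefSeq. A gene was read by its probe set with the highest mean log2 signal, values under the floor (50th percentile) were set to it, and ratios were taken as log2. With 1 array per group no test was run. The genes and lists were chosen with earlier results of these data known. Named genes are all members, Dgkz, Cdkn1a, list members at least 2-fold apart and up to 4 others per list with the largest ratios against EGFP among genes measured on both arrays, and the 5 nearest in pattern. Exceptions named after their values were seen are Gadd45b, Tnfrsf23, Trp63 and Trp73. Python 3.11.15, numpy 2.4.6, pandas 2.3.3 and matplotlib 3.10.9 were used.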

Additional observations from a re-analysis of the deposited data

How the results depend on the processing

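Alternatives were 3 scalings, other floors, no floor, a pseudocount, other ways to read a gene, and folds of 1.5 and 3. No paired analysis was possible because each group has 1 array. Against EGFP the 1 gene at least 2-fold higher became 2 by median scaling (1 median for each array's named probe sets), 0 with a floor at the 75th percentile (4 genes left), with the mean over probe sets and by second-brightest probe sets (3 genes), 3 at 1.5-fold and 0 at 3-fold; the 0 lower ones became 1 at 1.5-fold. The median of 0.49 was 0.85 by median scaling and 0.16 with the higher floor. Against untreated the count of 2 became 4, 0, 1 and 1 under the same 4 settings, 4 at 1.5-fold and 1 at 3-fold. It became 3 with a floor at the 25th percentile (Perp then counts) and 3 without _x_at and _s_at probe sets. The median of 0.54 was 0.80 by median scaling, 0.78 with the floor at the 25th percentile and 0.82 without _x_at and _s_at probe sets. For EGFP against untreated the 0 higher ones became 1 with the lower floor, without a floor and with the pseudocount, and 2 at 1.5-fold; the median of 0.28 was 0.18 by median scaling and 0.12 by second-brightest probe sets. The cause of these moves was not tested beyond the fewer genes and other thresholds that the settings themselves bring. The number of arrays limits the precision, and signals near the floor, such as those of Trp53inp1 in untreated cells and of Sesn1, are the least certain.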
